A study of Homo sapiens with 6 samples.

Results

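The metalloproteinases described here are the matrix metalloproteinases (MMP), their tissue inhibitors (TIMP), the ADAM proteases of the cell surface and the secreted ADAMTS proteases, followed in SW1990, an established cell line from a human pancreatic adenocarcinoma. They were chosen by gene symbol alone: MMP, TIMP, ADAM or ADAMTS followed by a number and, where present, the letter A or B. The rule found 66 of the 19077 genes, made up of 23 MMP, 4 TIMP, 20 ADAM and 19 ADAMTS genes, and each had a single row.

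RNA was sequenced in 6 libraries, all of SW1990. The resistant library came from a gemcitabine-resistant derivative grown with 100 nM gemcitabine, a chemotherapy drug that enters DNA as a false nucleoside. The parental line was grown without it, and 2 TRA-1-81 positive libraries, 2 TRA-1-81 negative libraries and 1 unsorted library were made from it. TRA-1-81 is a glycan epitope known from pluripotent stem cells, and flow cytometry separated the positive from the negative cells. Every cell was grown in DMEM/F-12 medium with fetal bovine serum, and the resistant derivative and the unsorted parental line have 1 library each. The labels do not state whether the derivative is 1 clone. Each fraction has a library numbered 0603 and one numbered 0610. What these numbers mark is not stated. The labels also leave unsaid whether separate cultures were used, so a p-value here reflects the spread of these samples alone, and that spread may be technical.

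Levels are FPKM (fragments per kilobase, corrected for sequencing depth), a per-length unit in which genes can be compared. An FPKM of at least 1 was reached by 11164 to 11729 genes per library, and by 28 members in the resistant library, 25 and 23 in the positive libraries, 24 and 25 in the negative libraries and 23 in the unsorted parental library. From the smallest values of short genes, 3 fragments on a 1 kb gene were placed at an FPKM of roughly 0.145 in resistant, 0.0974 to 0.111 in sorted and 0.175 in unsorted parental cells. No member was listed at 0 in 1 library while reaching 5 in the other 5, which 7 other genes of the table did. The summed level of 6 epithelial pancreatic cancer markers was 4291 in resistant, 4694 to 5752 in sorted and 5840 in unsorted parental cells. Its members did not move together. KRT7 had 1285 in resistant and 607 in unsorted parental cells, while KRT8 had 844 and 2302.5 and KRT18 had 645 and 1585 in the same order.

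MMPs are secreted or membrane-bound zinc enzymes that cut collagens and other matrix proteins. They are made as proenzymes, which plasmin and other proteases activate, and TIMPs block their active site. ADAMs with an active zinc site work mainly as sheddases, releasing growth factors, cytokine receptors and adhesion molecules from the cell surface, while ADAMTS enzymes are secreted and act on proteoglycans, procollagens and other matrix proteins. In pancreatic cancer these enzymes are studied for their part in the dense stroma and in invasion. Their activity depends on processing and inhibition, which RNA levels do not measure.

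In all 6 libraries the most abundant members were a mix of the families. Of the 66 genes, 34 reached an FPKM of 1 in at least 1 library (13 MMP, 4 TIMP, 9 ADAM and 8 ADAMTS), and 18 did so in all 6. The other 32 stayed under 1 everywhere, and of these MMP26, ADAM2, ADAM7, ADAM18, ADAM30 and ADAMTS5 were listed at 0 in every library. The best known of the low genes were MMP9, the gelatinase of neutrophils and macrophages, and MMP3, a stromelysin that activates other MMPs. The highest of the 32 was ADAMTS14, a procollagen-processing enzyme, at a maximum of 0.807.

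**Figure D1:**
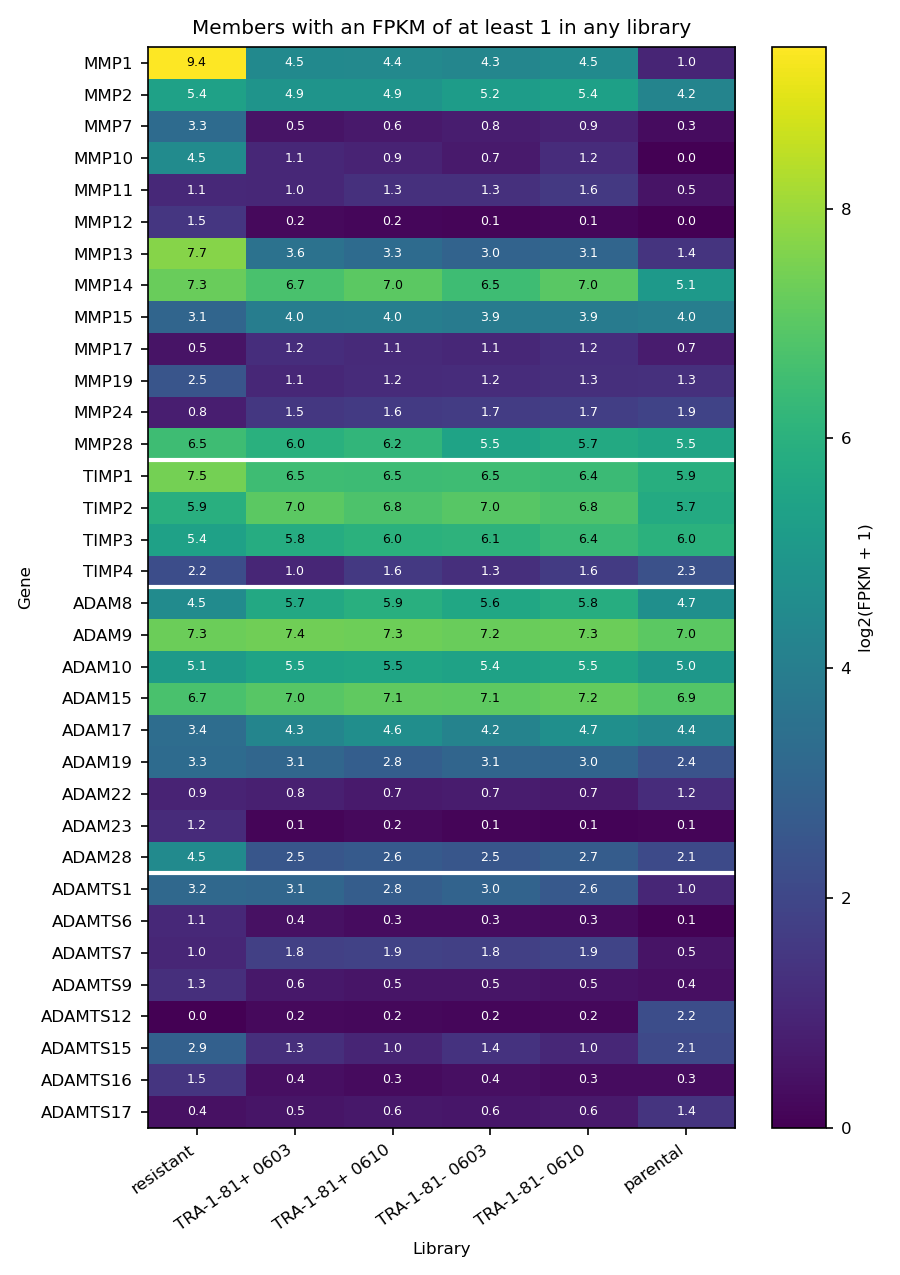
Level of each of the 34 members that reached an FPKM of 1 in any library, plotted as log2(FPKM + 1) on the colour scale, with 1 row per gene and 1 column per library. MMP1 and MMP13 are at 678 and 208 in the resistant library, and ADAM9, ADAM15 and the TIMP genes 1 to 3 stay above 40 in all 6.

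Summed over its 23 genes, the MMP family stood at an FPKM of 1217 in the resistant library. The same sum was 247 and 284 in the positive libraries 0603 and 0610, 217 and 272 in the negative libraries, and 119 in the unsorted parental library. MMP1 made up 55.7% of the sum in resistant cells, 7.25% to 8.73% in sorted cells and 0.815% in unsorted parental cells. With MMP1 and MMP13 set aside, the sum was still 331 in resistant cells, against 192 to 254 in sorted and 116 in unsorted parental cells. The other families differed less: the TIMP sum was 280.0 in resistant, 263 to 279 in sorted and 179 in unsorted parental cells, and the ADAM sum was 359, 405 to 438 and 330.2 in the same order. The ADAMTS sum was 21.9 in resistant, 11.9 to 14.3 in sorted and 11.9 in unsorted parental cells.

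**Figure D2:**
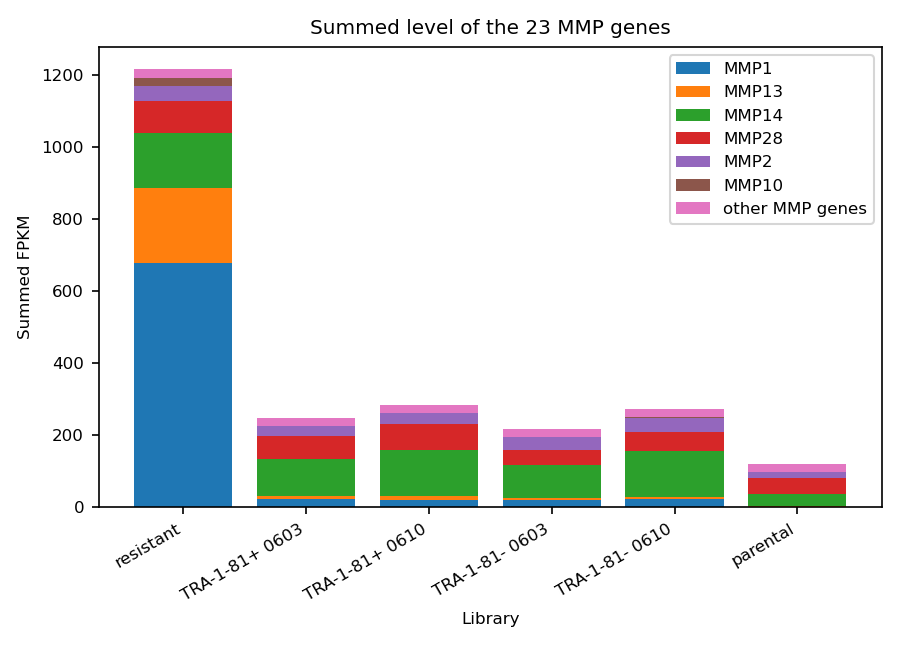
Summed FPKM of the MMP genes in each of the 6 libraries, split into MMP1, MMP13, MMP14, MMP28, MMP2, MMP10 and all others. Bars start at 0 and have no error bars because each bar is 1 library. The bar of the resistant library reaches 1217, and the other 5 end between 119 and 284.

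The active zinc of these enzymes is held by 3 histidines beside a catalytic glutamate. The codons of this site are shown for the enzymes the results turn on. The site joins the MMP, ADAM and ADAMTS families, but not the TIMP inhibitors, and separates catalytic from non-catalytic ADAMs. In the 33 bases below, taken 5′ to 3′ on the coding strand from GENCODE 29 transcripts on GRCh38, capitals mark the codons of the 3 histidines and of the glutamate. They lie in exon 5 of the MMP genes and in exon 11 of ADAM17.
MMP1 (chr11:102795549-102795581, minus strand): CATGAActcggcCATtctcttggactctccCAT
MMP13 (chr11:102952115-102952147, minus strand): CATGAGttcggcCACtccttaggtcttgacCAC
MMP10 (chr11:102776718-102776750, minus strand): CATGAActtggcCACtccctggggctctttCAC
MMP7 (chr11:102523343-102523375, minus strand): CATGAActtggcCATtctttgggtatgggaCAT
MMP14 (chr14:22843283-22843315, plus strand): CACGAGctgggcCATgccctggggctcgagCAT
MMP28 (chr17:35770167-35770199, minus strand): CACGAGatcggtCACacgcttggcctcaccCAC
ADAM17 (chr2:9510078-9510110, minus strand): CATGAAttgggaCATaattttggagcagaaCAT
Against MMP1, the number of identical bases out of 33 was 25 in MMP10, 24 in MMP7, 23 in MMP14 and MMP28, 22 in MMP13 and 21 in ADAM17. The reference transcripts were searched for these codons together with a glycine or asparagine codon between the last 2 histidines. The pattern was found in 23 of 23 MMP genes, 18 of 19 ADAMTS genes and 12 of 20 ADAM genes. A gene without a match, such as ADAMTS8, may still hold the marked codons. Of the 12 ADAM genes with the site, 7 reached an FPKM of 1, with a highest value of 165. Of the 8 without it, 2 did so, ADAM22 and ADAM23, with a highest value of 1.31. The ADAM transcripts of these cells were thus mostly those of genes that carry the zinc site.

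Between the resistant and the unsorted parental library, most of the MMP genes measured were higher in the resistant one. A gene was counted as 2-fold apart when its log2(FPKM + 1) differed by at least 1 between the libraries. It also had to reach an FPKM of 1 in either. Of 32 members measured, 15 were at least 2-fold higher in the resistant library, against 13.5% of the 12066 genes measured. At least 2-fold lower were 4, against 6.9% of all genes, and 13 lay within 2-fold. The 15 were 9 of 12 measured MMP genes, 1 of 4 TIMP, 2 of 9 ADAM and 3 of 7 ADAMTS genes, and 7 of them were measured only because of their level in the resistant library, as were 588 of the 1629 higher genes overall. Over all 66 members, with no filter, the counts were again 15 and 4. That was fixed in advance, since a difference of 1 on this scale requires an FPKM of at least 1 in the higher library. The median log2 difference was 0.88 in the 32 measured members and 0.04 in all 66, while that of the 12066 genes was 0.09. Each side is 1 library, so these differences have no replicate check and carry no p-value, and quantile normalization moved the median of all genes from 0.09 to -0.06. It also moved the share of higher calls among all genes called from 66.2% to 51.4%.

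MMP1, the interstitial collagenase that cuts fibrillar collagen, had an FPKM of 678 in resistant cells, 21.1 and 20.6 in positive cells, 19.0 and 21.6 in negative cells and 0.967 in unsorted parental cells. It was 701-fold higher in the resistant than in the unsorted parental library and 31.4-fold higher than in the highest sorted one. The difference on the log2(FPKM + 1) scale was 8.43. Every sorted library lay far above the unsorted one, and none came near the resistant one.

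MMP13, a second collagenase, stood at 208 in resistant cells, 10.8 and 8.88 in positive, 6.89 and 7.31 in negative and 1.64 in unsorted parental cells, a log2 difference of 6.31 between resistant and unsorted parental cells. MMP10, a stromelysin that activates procollagenases, stood at 22.2 in resistant cells, 1.07 and 0.924 in positive, 0.597 and 1.31 in negative and 0.0193 in unsorted parental cells. The unsorted parental value of MMP10 lies under that of 3 fragments, so no fold is given for it. Against the highest sorted library, MMP13 was 19.2-fold and MMP10 16.9-fold higher in the resistant one.

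MMP7, matrilysin, an epithelial MMP with a minimal domain structure, reached 8.69 in resistant cells, 0.419 and 0.560 in positive, 0.696 and 0.847 in negative and 0.247 in unsorted parental cells. MMP12, macrophage elastase, reached 1.82 in resistant cells, 0.180 and 0.131 in positive, 0.0903 and 0.108 in negative and 0.0212 in unsorted parental cells. Both were low outside the resistant library, which was at least 10-fold above the highest sorted one in each (10.3-fold for MMP7 and 10.1-fold for MMP12).

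These 5 genes are neighbours. They belong to a run of 9 MMP genes on chromosome 11, between 102391239 and 102826463 in hg19, a span of 435 kb. Of the 9, 5 were measured, 4 of them (MMP1, MMP7, MMP10 and MMP12) only through their level in the resistant library. These 5 were at least 2-fold higher there than in the unsorted parental library (13.5% of all genes measured), which for those 4 the filter itself favours. They were also at least 2-fold higher than in any parental-line library (5.62%), where only MMP7 and MMP12 passed the filter through the resistant library alone. The other 4, MMP20, MMP27, MMP8 and MMP3, stayed under an FPKM of 1 everywhere, and MMP3 had the highest value of them, 0.0995 in the resistant library. Of 11 genes of other families listed on either side, 9 were measured and 1 was at least 2-fold higher than in unsorted parental cells. That gene was BIRC3, which encodes an inhibitor of apoptosis, at 77.0 in resistant, 19.4 to 25.8 in sorted and 10.2 in unsorted parental cells. BIRC2 beside it had 57.4 in resistant, 26.3 to 28.7 in sorted and 33.8 in unsorted parental cells, and TMEM123, the nearest neighbour below MMP7, had 165, 133 to 160 and 155 in the same order.

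**Figure D3:**
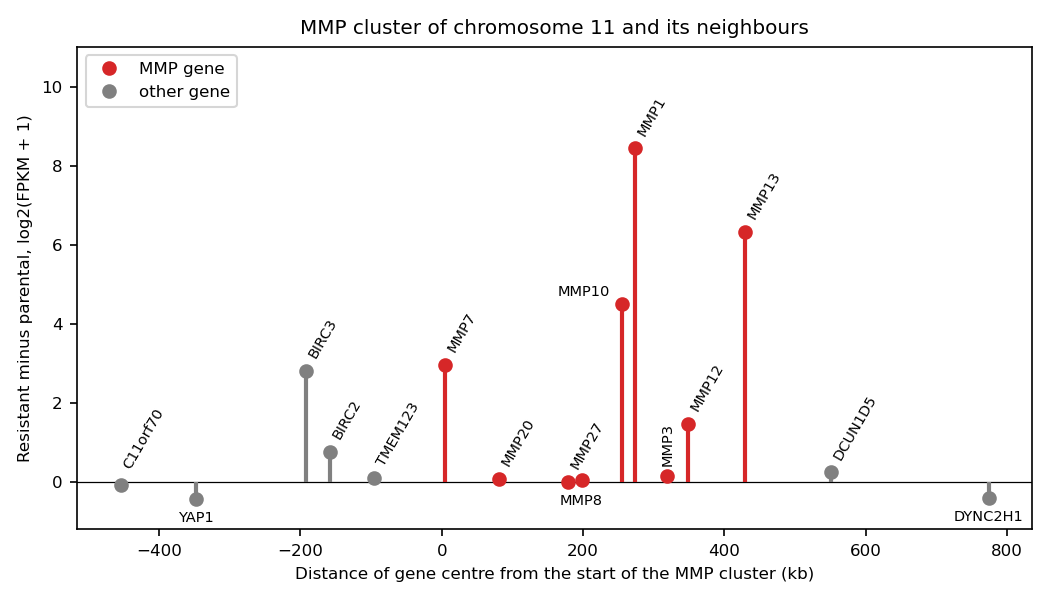
Log2(FPKM + 1) of the resistant minus that of the unsorted parental library for the 9 MMP genes of the chromosome 11 cluster (red) and 7 neighbours of other families (grey), against the distance of the gene's centre from the start of the cluster in kb. MMP1 at 8.43, MMP13 at 6.31 and MMP10 at 4.51 stand out, the unmeasured MMP genes lie at 0 to 0.14, and BIRC3 at 2.81 is the only neighbour past 1.

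Promoters from RefSeq were at hand for 4 of the 9 cluster genes, while MMP1, MMP12 and MMP13 had no entry and were not searched. The 4 are shown to set 2 genes that were higher in the resistant library, MMP7 and MMP10, beside 2 that were hardly detected. Each line gives the 110 bases before the annotated start on GRCh38.p14, with TATAAA and the AP-1 motif TGAGTCA in capitals. Variants of these letters were not searched for.
MMP7 (chr11:102530748-102530857, minus strand): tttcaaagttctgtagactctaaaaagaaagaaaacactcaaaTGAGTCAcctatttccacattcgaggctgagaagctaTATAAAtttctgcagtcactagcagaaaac
MMP10 (chr11:102780629-102780738, minus strand): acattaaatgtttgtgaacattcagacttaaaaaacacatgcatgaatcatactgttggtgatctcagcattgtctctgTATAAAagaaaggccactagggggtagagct
MMP8 (chr11:102724955-102725064, minus strand): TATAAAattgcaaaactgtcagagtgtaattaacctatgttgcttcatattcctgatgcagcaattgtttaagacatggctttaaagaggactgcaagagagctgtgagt
MMP20 (chr11:102625333-102625442, minus strand): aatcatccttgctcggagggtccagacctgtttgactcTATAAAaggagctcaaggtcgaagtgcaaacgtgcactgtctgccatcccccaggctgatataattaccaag
TATAAA begins 30 bases before the start in MMP7 and 31 bases before it in MMP10, while in MMP20 and MMP8 it begins 72 and 110 bases before it. The MMP7 promoter also holds TGAGTCA, 67 bases before the start. On either strand within 250 bases before the start, TGAGTCA is in 4.20% of 35116 promoters and in 1 of 39 member genes that have an entry, MMP7. TATAAA is in 10.7% of promoters and in 7 of the 39, and the ETS core AGGAAG in 28.7% of promoters and in 9 of the 39. A match is only a match of letters.

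Outside the cluster, MMP14, MMP2 and MMP28 were the MMPs of highest level in the parental-line libraries. MMP14, the membrane-type MMP that cuts collagen at the cell surface and activates MMP2, had 153 in resistant cells, 103 and 129.6 in positive, 89.4 and 127 in negative and 32.8 in unsorted parental cells. Here the unsorted parental library stood apart below all others, and the log2 difference was 2.18 against it but 0.46 against the mean of the sorted libraries. MMP2, the gelatinase that MMP14 activates, had 40.9 in resistant cells, 27.9 and 28.1 in positive, 36.0 and 39.9 in negative and 18.0 in unsorted parental cells, with log2 differences of 1.14 and 0.32.

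MMP28, or epilysin, an MMP of epithelia, had 89.2 in resistant cells, 62.1 and 72.8 in positive, 43.5 and 51.7 in negative and 44.0 in unsorted parental cells. Its log2 difference of 1.0 is just past the threshold, and MMP28 was under it after quantile normalization. MMP19, expressed in many tissues, had 4.64 in resistant cells, against 1.09 to 1.44 in sorted cells and 1.49 in unsorted parental cells, a log2 difference of 1.18 that also fell under the threshold with quantile normalization. In the resistant library both lay above all 5 parental-line libraries.

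Of the 6 membrane-type MMPs, MMP24, MMP15 and MMP17 were lowest in the resistant library. MMP24 had 0.708 in resistant cells, 1.88 and 2.05 in positive, 2.17 and 2.31 in negative and 2.73 in unsorted parental cells, a log2 difference of -1.13. MMP15 had 7.45 in resistant cells, 15.0 and 15.3 in positive, 14.3 and 14.1 in negative and 15.3 in unsorted parental cells. Its difference of -0.95 on the log2(FPKM + 1) scale stops just short of the threshold and passed it with quantile normalization. MMP17 had 0.423 in resistant cells, 1.34 and 1.20 in positive, 1.09 and 1.32 in negative and 0.629 in unsorted parental cells, and was measured only through the sorted libraries. MMP11, stromelysin-3, known from tumour stroma, had 1.10 in resistant cells, inside the range of the parental-line libraries (0.423 to 1.94).

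Markers of other cell types were read beside these levels. The summed FPKM of 7 fibroblast markers was 20.4 in the resistant library, 4.36 to 5.39 in sorted cells and 2.86 in unsorted parental cells. COL1A1 (14.1 in resistant, 2.27 to 3.11 in sorted, 2.04 in unsorted parental cells) and LUM (6.04, 1.75 to 2.33 and 0.729) gave most of it. The other 5 were under 1 in every library, and DCN was listed at 0 in the resistant and all sorted libraries. The sum of 5 leukocyte markers was 52.3 in resistant, 18.9 to 25.9 in sorted and 16.4 in unsorted parental cells, nearly all of it CD68, and the defining marker PTPRC was at most 0.0205. The sum of 4 endothelial markers was 1.05 in resistant, 2.15 to 4.79 in sorted and 3.01 in unsorted parental cells. The part of these markers in the MMP values was not tested, and in bulk RNA a different share of cells and a different amount of RNA per cell cannot be told apart.

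Among the inhibitors, TIMP1 was the only one past 2-fold. It had 175 in resistant cells, 89.2 and 87.3 in positive, 88.4 and 85.1 in negative and 58.4 in unsorted parental cells, a log2 difference of 1.57. TIMP2, which also bridges MMP14 to pro-MMP2, had 60.4 in resistant cells, 130.3 and 109.7 in positive, 123 and 108 in negative and 52.7 in unsorted parental cells. TIMP2 was thus within 2-fold of the unsorted parental library (0.19), while the sorted libraries lay above both.

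TIMP3, the matrix-bound inhibitor that also blocks ADAM17, had 41.2 in resistant cells, 56.2 and 63.9 in positive, 65.9 and 83.0 in negative and 64.1 in unsorted parental cells. The resistant library was the lowest of the 6, at a log2 difference of -0.62 to the unsorted parental one. TIMP4 had 3.65 in resistant, 1.04 to 2.09 in sorted and 4.07 in unsorted parental cells.

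Of 9 ADAM genes measured, 6 were within 2-fold between resistant and unsorted parental cells, against 79.6% of 12066 genes. Against the sorted mean, 2 of 8 were at least 2-fold higher (8.24% of 12074 genes) and 2 lower (4.93%), and 4 were within 2-fold. ADAM9, ADAM15 and ADAM10 had the narrowest ranges across the 6 libraries. ADAM9 had 158 in resistant, 150.3 to 165 in sorted and 129 in unsorted parental cells, and ADAM15 had 103, 124 to 144 and 116 in the same order. ADAM10, the main sheddase of Notch receptors and E-cadherin, had 33.5 in resistant, 41.7 to 45.2 in sorted and 30.7 in unsorted parental cells, a log2 difference of 0.12 between resistant and unsorted parental cells.

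ADAM17, which releases TNF and several ligands of the EGF receptor, was lower in the resistant library. It had 9.34 in resistant cells, 18.6 and 23.8 in positive, 17.6 and 24.6 in negative and 19.9 in unsorted parental cells. The resistant library lay below all 5 others, at log2 differences of -1.01 to the unsorted parental library and -1.09 to the sorted mean. ADAM8, a sheddase known from leukocytes and several tumours, had 22.0 in resistant cells, 50.5 and 59.6 in positive, 47.7 and 56.7 in negative and 24.9 in unsorted parental cells, so that the sorted libraries stood above the other pair.

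ADAM28, which carries the zinc site and is best known from lymphocytes and epithelia, was higher in the resistant library. It had 21.6 in resistant cells, 4.76 and 5.26 in positive, 4.66 and 5.62 in negative and 3.31 in unsorted parental cells, a log2 difference of 2.39 and 3.84-fold above the highest sorted library. ADAM23, which lacks the zinc site and works in cell adhesion, had 1.25 in resistant, 0.0635 to 0.178 in sorted and 0.0847 in unsorted parental cells. ADAM22, another member without the zinc site, had 0.923 in resistant, 0.592 to 0.793 in sorted and 1.31 in unsorted parental cells. ADAM19 had 8.82 in resistant, 6.05 to 7.54 in sorted and 4.33 in unsorted parental cells. Its difference of 0.88 on the log2(FPKM + 1) scale was under the threshold, though the FPKM ratio was 2.04.

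ADAMTS genes were low, and no member of this family exceeded 8.05 in any library. ADAMTS1, which cuts versican and aggrecan, had 8.05 in resistant cells, 7.57 and 5.90 in positive, 7.0 and 5.22 in negative and 1.03 in unsorted parental cells, with log2 differences of 2.16 to the unsorted parental library and 0.30 to the sorted mean. ADAMTS15 had 6.35 in resistant cells, 1.395 and 0.958 in positive, 1.58 and 1.06 in negative and 3.27 in unsorted parental cells, and was 4.02-fold above the highest sorted library. The unsorted parental library was the low one for ADAMTS1 and stood between the others for ADAMTS15.

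ADAMTS12 showed the widest gap in the other direction. It was at 0.00511 in resistant cells, 0.167 and 0.161 in positive, 0.120 and 0.146 in negative and 3.73 in unsorted parental cells, a log2 difference of -2.23. The resistant value lies under that of 3 fragments, so no fold is given. The resistant library was the lowest of the 6, and the sorted libraries were also far below the unsorted parental one. ADAMTS17 was also lower, with 0.346 in resistant, 0.452 to 0.560 in sorted and 1.70 in unsorted parental cells. ADAMTS16, at 1.74 in resistant, 0.226 to 0.313 in sorted and 0.247 in unsorted parental cells, and ADAMTS6, at 1.14 in resistant and 0.0497 in unsorted parental cells, completed the 15 higher members. ADAMTS16 was under 2-fold after quantile normalization.

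**Figure D4:**
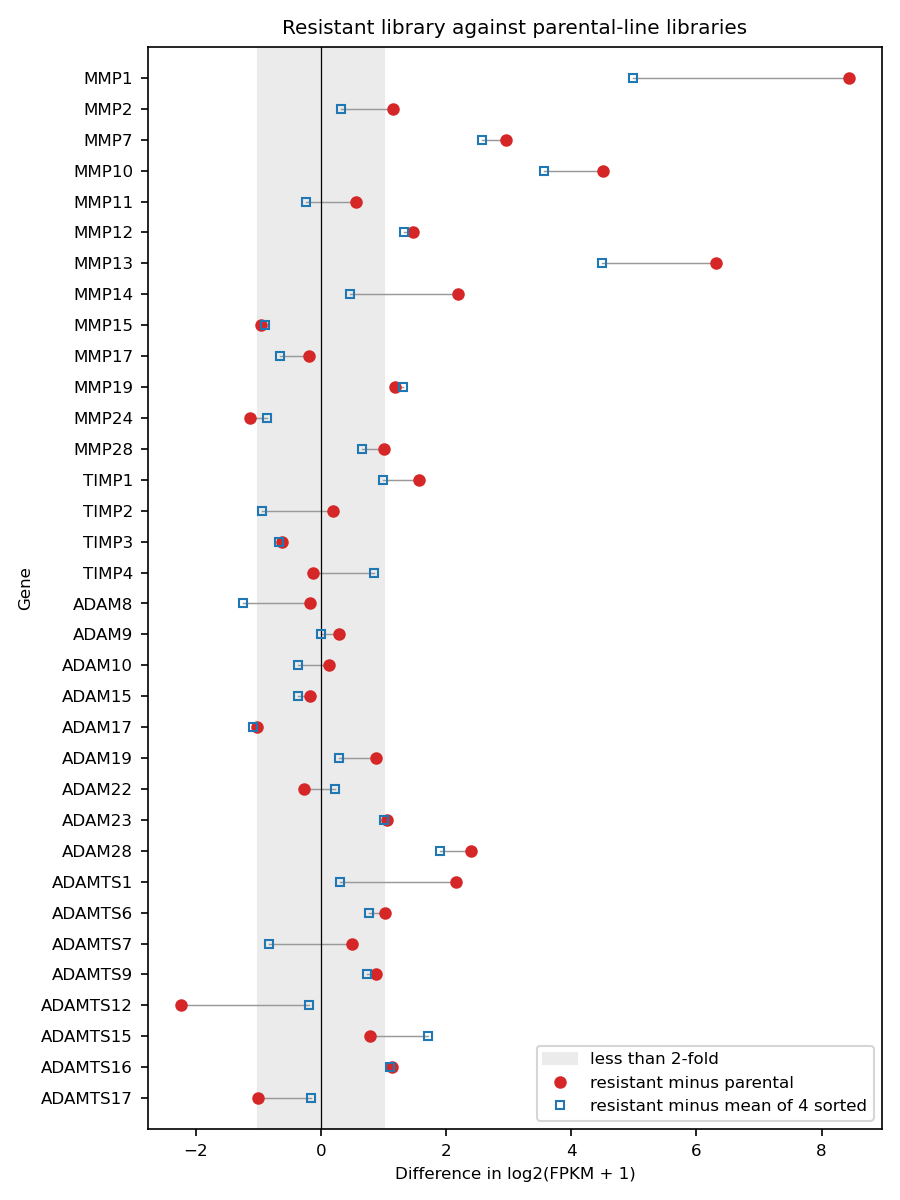
Log2(FPKM + 1) of the resistant library minus that of the unsorted parental library and minus the mean of the 4 sorted libraries, for each of the 34 members that reached an FPKM of 1, with the range within 2-fold shaded. MMP1, MMP13 and MMP10 are far to the right against either, while MMP14 and ADAMTS1 move from above 2 to under 0.5 when the sorted libraries are used.

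Because the parental line was sequenced both unsorted and sorted, the resistant library was also set against the sorted mean. These comparisons share the resistant library, so each one's counts are given for itself. Of 31 members measured, 10 were at least 2-fold higher in the resistant library, against 8.24% of 12074 genes, and 2, ADAM8 and ADAM17, were at least 2-fold lower, against 4.93%. The median was 0.46 in members and 0.05 in all genes measured, and quantile normalization moved the share of higher calls over all genes from 62.6% to 52.4%. The 10 were MMP1, MMP7, MMP10, MMP12, MMP13, MMP19, ADAM23, ADAM28, ADAMTS15 and ADAMTS16. MMP7, MMP12, ADAM23 and ADAMTS16 were under 1 in all 4 sorted libraries, so these 4 of the 10 were measured only through the resistant library, as were 225 of the 995 higher genes overall.

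Set against each of the 5 parental-line libraries at once, the resistant library was the highest of the 6 in 18 of 34 members, where 38.5% of 12251 genes were, and the lowest in 9, where 30.1% of genes were. By at least 2-fold it was above all 5 in 8 members (5.62% of genes), namely the 5 genes of the chromosome 11 cluster, MMP19, ADAM28 and ADAMTS16. It was at least 2-fold below all 5 in 0 members (2.14% of genes). MMP7, MMP12, ADAM23, ADAMTS6, ADAMTS9 and ADAMTS16 were under 1 in all 5 and were measured only through the resistant library. Their place among the 18 was thus fixed in advance, and MMP7, MMP12 and ADAMTS16 are also among the 8. The matching share of all genes was not counted.

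The unsorted parental library was itself unlike the sorted ones for several members. Of 28 measured, 7 were at least 2-fold higher in the sorted mean than in the unsorted library (MMP1, MMP13, MMP14, TIMP2, ADAM8, ADAMTS1 and ADAMTS7), against 5.44% of 11701 genes. MMP1 and ADAMTS7, 2 of the 7, were under 1 in the unsorted library and were measured only through the sorted ones. The one at least 2-fold lower was ADAMTS12, against 2.1% of genes. ADAMTS7, which cuts cartilage matrix proteins, had 2.41 and 2.64 in positive cells and 2.40 and 2.81 in negative cells, against 0.414 in unsorted parental cells and 0.998 in resistant cells. On the log2 scale the sorted mean exceeded the unsorted library by 3.45 for MMP1, 1.73 for MMP14 and 1.14 for TIMP2. Quantile normalization moved the share of higher calls over all genes in this comparison from 72.1% to 60.6%. The unsorted side is 1 library, so what is particular to it and what sorting does cannot be told apart.

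Genes that act with the metalloproteinases were counted by list between the resistant and the unsorted parental library, where 13.5% of all genes measured were at least 2-fold higher and 6.9% lower. Of 6 measured genes of plasminogen activation, the cascade that yields plasmin, 3 were at least 2-fold higher and 0 lower. PLAT, the tissue plasminogen activator, had 75.4 in resistant, 13.2 to 14.4 in sorted and 7.29 in unsorted parental cells, and SERPINB2, an inhibitor of plasminogen activators, had 275, 54.7 to 78.2 and 15.9 in the same order. The third, SERPINE2, another inhibitor, had 46.9 in resistant, 28.2 to 49.6 in sorted and 15.6 in unsorted parental cells. Of 10 other inhibitors and activators of metalloproteinases, 4 were higher and 0 lower, among them CD44 and SPOCK1, and 2 of the 4 were measured only through the resistant library. CD44, which docks MMPs at the cell surface, had 285 in resistant, 149.5 to 174 in sorted and 137 in unsorted parental cells.

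Of 8 partners of the sheddases, 1 was higher, TSPAN5, a tetraspanin that travels with ADAM10, at 5.74 in resistant and 1.29 in unsorted parental cells, and 0 were lower. Of 5 EGF-family substrates of ADAM10 and ADAM17, 1 was higher (EPGN, measured only through the resistant library) and 1 lower, HBEGF, at 27.9 in resistant, 13.9 to 26.3 in sorted and 58.4 in unsorted parental cells. Among the transcription factor families known to bind MMP promoters, 1 of 6 AP-1 genes was higher, JUNB, at 33.7 in resistant, 31.8 to 56.3 in sorted and 14.8 in unsorted parental cells. Against the sorted mean, 0 of 7 AP-1 genes were higher (8.24% of genes) and 2 lower (4.93%). FOS had 2.96 in resistant, 53.9 to 63.0 in sorted and 5.49 in unsorted parental cells, and FOSB had 0.709, 3.40 to 5.78 and 0.254 in the same order. Of 7 ETS genes, 1 was higher and 3 lower. ETS2 had 37.0 in resistant, 7.44 to 10.5 in sorted and 6.74 in unsorted parental cells, while ETV4 had 6.60 in resistant, 26.8 to 37.8 in sorted and 34.8 in unsorted parental cells.

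Of 5 measured relatives outside the symbol rule (astacins, ADAMTS-like proteins and other metzincins), 4 were at least 2-fold higher and 0 lower, against 13.5% and 6.9% of all genes measured. Of the 5, 2 were measured only through the resistant library, and the other 10 of the 15 listed stayed under 1 everywhere. BMP1, the astacin that trims procollagens, had 64.8 in resistant, 14.9 to 20.2 in sorted and 9.19 in unsorted parental cells, and PAPLN, papilin, had 14.5, 1.17 to 1.35 and 0.631 in the same order.

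Between TRA-1-81 positive and negative cells, no member passed the test. limma called 0 of 25 members tested at an adjusted p under 0.05, against 0.00867% of 11533 genes in either direction (0.00867% higher, 0.0% lower), and 3 members had an unadjusted p under 0.05, as did 4.9% of genes. The lowest adjusted p of a member was 0.554. The median log2 difference was 0.02 in members and 0.01 in all genes. The groups did not overlap in 8 of 25 members, against 30.5% of genes, and the difference had the same sign within both numbers in 18 of 25, against 68.9% of genes, so neither share was far from that of all genes.

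The 3 members with an unadjusted p under 0.05 were MMP2, MMP28 and MMP13, whose values in each library are given above. MMP2 averaged 28.0 ± 0.105 in positive and 38.0 ± 2.75 FPKM in negative cells (SD, n = 2 each). Its log2 difference was -0.43 ± 0.08 (SE, limma adjusted p = 0.554), and of -0.36 within 0603 and -0.49 within 0610. MMP28 averaged 67.4 ± 7.59 in positive and 47.6 ± 5.84 FPKM in negative cells, a difference of 0.50 ± 0.13 (limma adjusted p = 0.714) that was 0.50 within 0603 and 0.49 within 0610. MMP13 averaged 9.85 ± 1.38 in positive and 7.10 ± 0.291 FPKM in negative cells, a difference of 0.42 ± 0.11 (limma adjusted p = 0.724), with 0.58 within 0603 and 0.25 within 0610. The positive libraries were both below the negative ones for MMP2 and both above them for MMP28 and MMP13.

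MMP1 and MMP14 overlapped between the fractions. MMP14 averaged 116 ± 19.1 in positive and 108 ± 26.5 FPKM in negative cells, and its difference of 0.11 ± 0.21 was small beside the spread within either fraction. TIMP3 averaged 60.05 ± 5.41 in positive and 74.4 ± 12.1 FPKM in negative cells, with -0.23 within 0603 and -0.37 within 0610, and was not called. MMP11 (-0.25) and TIMP4 (-0.16) were the next lower and ADAMTS1 (0.12) the next higher after MMP13, each at a limma adjusted p of 1.0. Over all 25 members the differences ran from -0.43 to 0.50. A fit with a term for the number, which the design does not state to be a pairing, called 2 of the 25 members higher, against 7.97% of genes, and 2 lower, against 4.9% of genes.

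**Figure D5:**
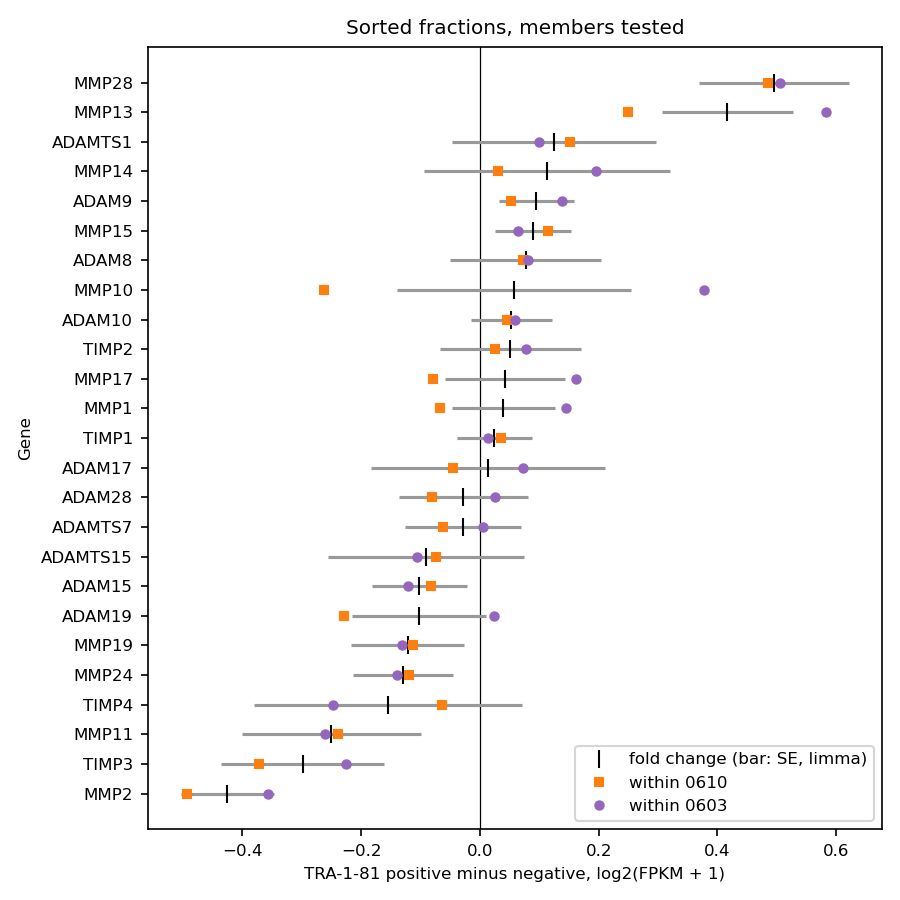
TRA-1-81 positive minus negative log2(FPKM + 1) for the 25 members tested, within 0610 and within 0603 as separate points, with the limma estimate and its SE. MMP28 and MMP13 lie to the right and MMP2 to the left in both numbers, and most members lie within 0.3 of 0.

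The libraries were also compared by number. With a term for the fraction, limma called 12 of 25 members between 0610 and 0603, against 41.2% of 11533 genes: 9 were higher in 0610 (22.4% of genes) and 3 lower (18.8% of genes). Without that term 2 members, MMP14 and ADAM17, were called, against 9.08% of genes. The values for the members with the widest differences follow.

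MMP14 was higher in 0610, at 129.6 and 127, than in 0603, at 103 and 89.4 (positive library first), by 0.42 ± 0.04 (SE, limma adjusted p = 4.55e-05). ADAM17 was higher at 23.8 and 24.6 in 0610, against 18.6 and 17.6 in 0603, by 0.40 ± 0.04 (limma adjusted p = 8.04e-05). TIMP4 was higher too, at 1.96 and 2.09 in 0610, against 1.04 and 1.42 in 0603, by 0.44 ± 0.08 (limma adjusted p = 0.00148). In each the 0610 libraries lay above both 0603 libraries.

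ADAMTS1 was lower, at 5.90 and 5.22 in 0610, against 7.57 and 7.0 in 0603, a difference of -0.34 ± 0.05 (limma adjusted p = 0.000683). TIMP2 was lower as well, at 109.7 and 108 in 0610, against 130.3 and 123 in 0603, a difference of -0.22 ± 0.03 (limma adjusted p = 0.000559). The third lower member was ADAMTS15, at 0.958 and 1.06 in 0610, against 1.395 and 1.58 in 0603, a difference of -0.31 ± 0.08 (limma adjusted p = 0.00943). The other 6 higher members were MMP11, MMP28, TIMP3, ADAM8, ADAM15 and ADAM28, with differences of 0.11 to 0.27. MMP1 was at 20.6 and 21.6 in 0610, against 21.1 and 19.0 in 0603, and was not called.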

How the data were processed

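Gene levels were measured by RNA sequencing in 6 libraries. The authors deposited 1 table of FPKM values; its header names no unit, and the values are read as FPKM, the unit Cufflinks writes. Cufflinks 2.1.1, TopHat2 2.0.11, CASAVA 1.8.2 and hg19 are named per the submitters' processing notes. Library preparation followed Illumina's standard protocol, per the labels' protocols. Depth is not given in the sources used here. Cufflinks shares fragments between transcripts, so counts could not be recovered. Repeated symbols (191 of them) were reduced to the row of highest mean, leaving 19077 genes, and starts were raised by 1, since 315 of 346 short olfactory receptor genes then spanned a multiple of 3 bases. The members and lists were chosen with earlier results of these data known.

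Values were analysed as log2(FPKM + 1), which understates the change of low genes. Sorted libraries were fitted in limma 3.58.1 under R 4.3.3 (mean trend, two-sided, Benjamini-Hochberg adjustment). The adjustment ran over all genes that reached an FPKM of 1 in 2 or more of the 4. A run of the fit on simulated data had larger changes than these members show and no shift between the numbers. It therefore checks the code and not the power of the test. Comparisons with 1 library on a side rest on the 2-fold rule alone. Members given in full are, among those measured, the 12 largest and 12 smallest resistant minus unsorted parental differences, the 4 largest and 4 smallest of either sorted comparison, the 10 of highest mean and the TIMP genes, 28 in all. Others were named after their values were seen. Alternatives were other pseudocounts, filters, quantile normalization, summed repeats, a term for the number and leaving out each sorted library. Promoters come from RefSeq (GRCh38.p14) and codons from GENCODE 29 transcripts (GRCh38); hg19 positions were not converted. Python 3.11.15 with pandas 2.3.3 was used.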

Additional observations from a re-analysis of the deposited data

How the results depend on the processing

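With 1 resistant and 1 unsorted parental library, no setting gives an error for their differences, and low genes depend on the pseudocount. Smaller shifts in a count are not all listed here. In resistant against unsorted parental cells, the 15 higher members became 8 with a pseudocount of 5. With an FPKM of at least 5, MMP12, MMP19, ADAM23, ADAMTS6 and ADAMTS16 dropped out of the 15. The 4 lower members became 0 with a pseudocount of 5, 1 with an FPKM of at least 5, 2 against the sorted mean and 9 when lying below all 5 parental-line libraries was counted. The 18 members above all 5 became 28 with no filter, and the 9 below became 5 with an FPKM of at least 5; both settings were chosen after seeing the data. Against the sorted mean, the 10 higher members became 5 with a pseudocount of 5 and 6 with an FPKM of at least 5, and the 2 lower became 5 with a pseudocount of 0.1 or quantile normalization and 1 with a pseudocount of 5. Between sorted and unsorted parental cells, the 7 higher members became 4 with a pseudocount of 5. The 1 lower became 4 with a pseudocount of 0.1 or quantile normalization, and 0 with a pseudocount of 5 or an FPKM of at least 5. Leaving out 1 sorted library gave 1 to 2, with 2 without the positive library 0610, the negative library 0603 or the negative library 0610. Same-numbered sorted libraries deviated together (r = 0.654 over 11533 genes), but 2 numbers whose meaning is not stated do not establish a pairing. With the replicate block (a term for the number), 2 members were called higher, MMP28 (limma adjusted p = 1.48e-05) and MMP13 (limma adjusted p = 0.00412), and 2 lower, MMP2 (limma adjusted p = 0.000143) and TIMP3 (limma adjusted p = 0.000999). Between the numbers, the 9 higher members became 5 with no filter and 2 without a term for the fraction, and the 3 lower became 0 without that term. Leaving out 1 library with a fraction term leaves no residual degrees of freedom and could not be fitted; without that term, in fits chosen after seeing the data, leaving out any 1 library gave 0 higher and 0 lower, and MMP28 turned to -0.0065 without the positive library 0610 and to -0.016 without the negative library 0603. The cause of these shifts was not tested.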
